A study of Homo sapiens with 74 samples.

Results

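Loss of ARID2 by knockdown was followed in HAP1 cells that kept SMARCA4 and in HAP1 cells that lacked it. HAP1 is a human cell line with close to a single set of chromosomes, derived from a chronic myeloid leukaemia. The assay was ATAC-seq: a transposase inserts adapters into open DNA, so that reads pile up over accessible chromatin. The comparison used 8 of the 74 samples of the series, chosen by their labels: 2 libraries each of wild-type cells with a control knockdown, wild-type cells with ARID2 knockdown, cells with a knockout of SMARCA4 and a control knockdown, and cells with a knockout of SMARCA4 and ARID2 knockdown. The cells with the SMARCA4 knockout are called SMARCA4-null. The labels give no clone for the knockdown libraries, and they name the knockdown reagent in 2 ways, so only the word knockdown is used here. The labels do not say whether replicates were separate cultures, and p-values then describe the spread between these libraries, which may be technical. The title of the series speaks of synthetic lethal pairs within the complex, and ARID2 loss on top of SMARCA4 loss is one such combination.

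BAF (SWI/SNF) complexes use ATP to slide or evict nucleosomes and help to set which enhancers and promoters are open. They come in several forms that share a core. SMARCA4 (BRG1) is an ATPase of the complex and SMARCC1 is a core scaffold subunit, while ARID1A marks the canonical BAF form. ARID2 is a large DNA-binding subunit found in the PBAF form, together with PBRM1 and BRD7, which read acetylated histones through bromodomains, and PHF10, a plant homeodomain protein. SMARCA2 is a second ATPase that can take the place of SMARCA4 in BAF complexes. Whether the SMARCA4-null cells assembled PBAF was not measured here.

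The 8 libraries held 6203232 to 12432292 counts over 145730 regions, with a median of 26 to 36 counts per region. Values below are CPM, counts scaled to library size with a correction for composition. Across regions of above-median accessibility, log2 CPM of replicates 1 and 2 had a correlation of r = 0.938 in wild-type control, 0.9 in wild-type ARID2 knockdown, 0.93 in SMARCA4-null control and 0.884 in SMARCA4-null ARID2 knockdown. The share of counts that fell in the most accessible 10% of regions was 46.4% and 42.3% in the wild-type controls against 43.6% and 36.7% with ARID2 knockdown. It was 48% and 45.3% in the SMARCA4-null controls against 49.1% and 38% with ARID2 knockdown. Replicate 2 of each knockdown thus had the flattest profile of its background, and the part of this in the results was not tested. The SMARCA4-null label was checked on regions called in SMARCA4 knockout clones of a second deposited table. Of 20194 regions that were lower there, 93.1% were also lower in the SMARCA4-null control libraries than in the wild-type ones. Their median log2 fold change was -1.11. Of 11636 regions that were higher there, 86.3% were also higher, with a median of 0.369. Among all regions 44.4% were lower and 55.6% higher, with a median of 0.084. ATAC-seq does not measure ARID2 RNA or protein, so the depth of the knockdown itself was not tested here.

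Few regions passed the test for a change with ARID2 knockdown. A region is said to be called when its adjusted p was under 0.05 by edgeR's quasi-likelihood test with Benjamini-Hochberg adjustment over 145617 regions, with the replicate number as a block. In wild-type cells 4 regions were called (0.00275% of those tested), all 4 higher with the knockdown. In SMARCA4-null cells 64 were called (0.044%), 58 of them higher (0.0398%) and 6 lower (0.00412%). The average over both backgrounds had 295 (0.203%), with 137 higher (0.0941%) and 158 lower (0.109%). No region was called in both backgrounds. At an unadjusted p under 0.05 the test gave 8.47% of regions in wild-type cells, 7.96% in SMARCA4-null cells and 12% in the average.

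These counts rested on the block. With no replicate block, wild-type and SMARCA4-null cells had 0 called regions each, and the average had 5, all 5 higher and all among the 137. At an unadjusted p under 0.05, wild-type cells, SMARCA4-null cells and the average had 6167, 6524 and 9402 of 145617 regions without the block. With the block these numbers were 12338, 11591 and 17429. The replicate numbers tied the samples only loosely: deviations from the group means correlated at 0.0681 to 0.255 over the 6 pairs of the 4 groups, and 5 of the 6 were over 0.1. The split of the average moved with the scaling: 53.6% of the called regions were lower with TMM factors, 46.3% of 227 with the size factors of DESeq2 in edgeR and 30.8% of 429 with cyclic loess offsets. With DESeq2 itself, which also changes the test, 85.4% of 548 were lower.

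**Figure D1:**
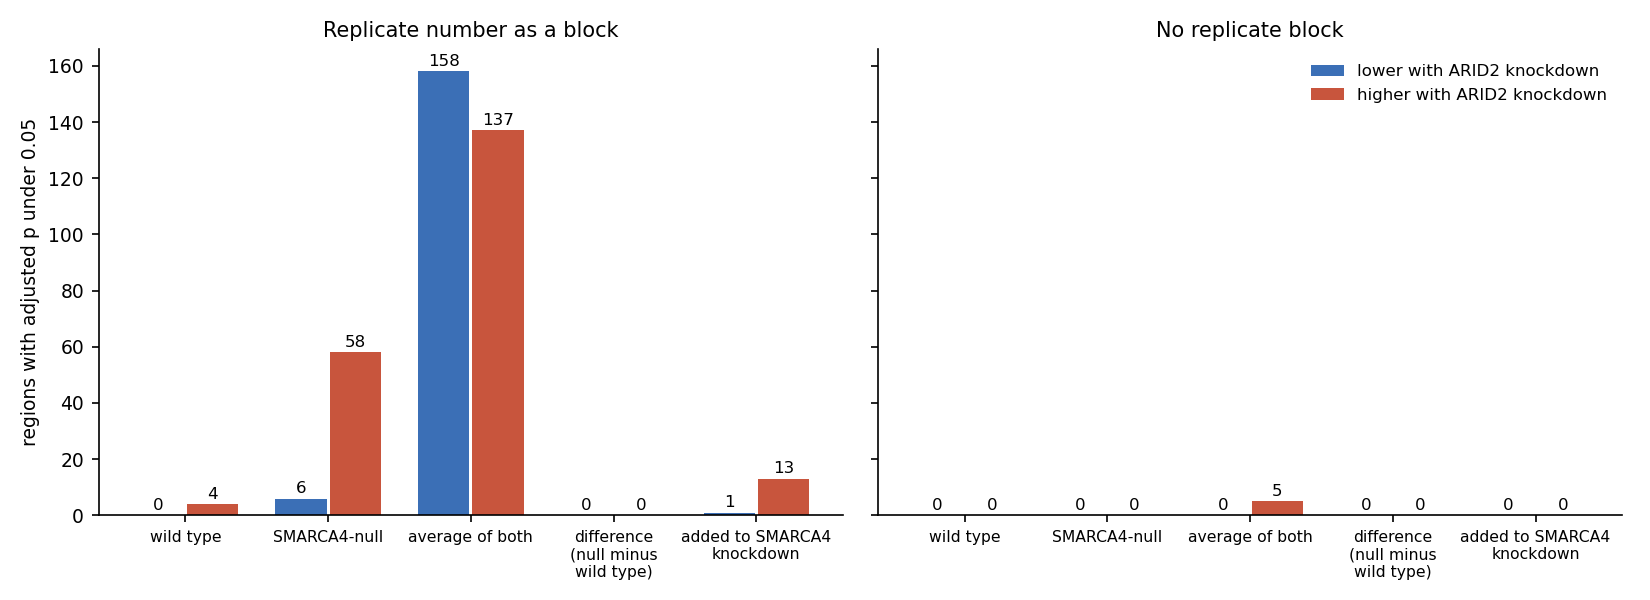
Number of regions with an adjusted p under 0.05 (y axis) for ARID2 knockdown in wild-type cells, in SMARCA4-null cells, for the average of both, for the difference between backgrounds and for ARID2 knockdown added to SMARCA4 knockdown (x axis), with the replicate number as a block (left) and without it (right). The average holds 158 lower and 137 higher regions with the block and 5 higher ones without it.

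Single libraries carried much of the total. In SMARCA4-null cells the count was 0 without ARID2 knockdown replicate 1, 2 without control replicate 1, 29 without control replicate 2 and 224 without ARID2 knockdown replicate 2. In wild-type cells it was 1 without ARID2 knockdown replicate 1 and 0 without any other of the 4 libraries. The average fell to 11 without wild-type ARID2 knockdown replicate 2, to 44 without wild-type control replicate 1 and to 32 without SMARCA4-null ARID2 knockdown replicate 1. It was 76 without SMARCA4-null control replicate 2, 110 without wild-type control replicate 2, 129 without wild-type ARID2 knockdown replicate 1, 357 without SMARCA4-null control replicate 1 and 468 without SMARCA4-null ARID2 knockdown replicate 2. Of the 137 higher regions 4 were called whichever of the 8 libraries was left out, and of the 158 lower regions 0 were.

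The 8 leading regions that opened with ARID2 knockdown over both backgrounds held 0.998 to 7.36 CPM in the control libraries. The files give regions by position in hg19 and name no genes, so positions stand in for names. The region chr9:31023736-31024414 (678 bp) held 2.24 and 1.41 CPM in the wild-type controls and 6.23 and 5.6 with ARID2 knockdown. In SMARCA4-null cells it held 3.37 and 1.21 CPM in the controls and 8.84 and 7.09 with ARID2 knockdown. Every knockdown library lay above every control library, and the average was 3.34-fold higher (log2 fold change 1.74, SE 0.282, adjusted p = 0.000293). This region was called with and without the block (adjusted p = 0.0181 without it).

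The smallest adjusted p of the average belonged to chrX:73754703-73755466. Its wild-type libraries held 4.78 and 4.37 CPM with the control and 11.9 and 14.1 with ARID2 knockdown, and its SMARCA4-null libraries 7.36 and 5.39 against 22.8 and 12.2. The groups did not overlap, and the gain was 2.86-fold in wild-type and 2.72-fold in SMARCA4-null cells (average log2 fold change 1.48, SE 0.213, adjusted p = 2.16e-05).

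The region chr2:210360631-210361294 went from 6.83 and 6.56 CPM to 15.9 and 11.2 in wild-type cells and from 6.24 and 5.12 to 23.5 and 14.8 in SMARCA4-null cells. All 4 knockdown libraries again lay above all 4 controls (average log2 fold change 1.37, SE 0.205, adjusted p = 5.06e-05). It was also higher in an ARID2 knockout clone measured separately, at 14.4 and 9.8 CPM against 5.82 and 4.54 in that table's wild type (log2 fold change 1.21, SE 0.277, adjusted p = 0.00378). Knockdown and knockout of ARID2 thus gave the same direction at this region.

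The region chr18:48208039-48208594 was called in wild-type cells and in the average. It held 1.46 and 1.16 CPM in the wild-type controls against 7.52 and 4.88 with ARID2 knockdown, a 4.69-fold gain (log2 fold change 2.23, SE 0.415, adjusted p = 0.0255). In SMARCA4-null cells it held 1.71 ± 0.826 CPM (SD, n = 2) against 3.9 ± 0.982, a log2 fold change of 1.16 that was not called there (adjusted p = 0.398). The ARID2 knockout clone held 2.32 and 1.72 CPM against 2.52 and 1.31 in its wild type (log2 fold change 0.05, SE 0.457).

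Among the other leading higher regions, chr6:83917840-83918507 rose 2.76-fold and chr2:28833428-28834016 rose 2.72-fold on average, while chr4:190637232-190637740 and chr7:9244292-9245097 rose 2.57-fold and 2.56-fold. The region chr2:28833428-28834016 held 2.24 and 2.7 CPM in wild-type controls, 6.66 and 6.61 with ARID2 knockdown, 2 and 1.48 in SMARCA4-null controls and 5.57 and 4.01 with ARID2 knockdown. The gain differed by 0.03 on the log2 scale between the backgrounds (95% interval -1.02 to 1.09). The ARID2 knockout clone had 9.69 and 6.16 CPM there against 2.43 and 2.03.

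The regions that closed with ARID2 knockdown were wide and accessible. Over all 16 libraries of the table the 158 lower regions had a median of 14.4 CPM, with a width of 1046 bp, and 74.7% of them lay among the 25% most accessible regions. The 137 higher regions had a median of 7.92 CPM and 784 bp, with 61.3% among them, and all tested regions had 3.6 CPM and 622 bp. In the 4 control libraries alone the medians were 19.7, 5.42 and 3.54 CPM, where calls of a loss favour high and calls of a gain favour low control values. Calls of lower regions depended more on the scaling: 105 of the 137 higher regions but 78 of the 158 lower ones were called under TMM and both other edgeR scalings.

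The region chr3:143215596-143216466 led the lower side. It held 8.19 and 6.56 CPM in the wild-type controls and 2.36 and 3.59 with ARID2 knockdown, and 3.74 and 4.04 in the SMARCA4-null controls against 0.619 and 2.67. The loss was 2.54-fold on average (log2 fold change -1.34, SE 0.303, adjusted p = 0.0252) and nearly equal in the 2 backgrounds, at 2.52-fold and 2.55-fold.

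At several lower regions the SMARCA4-null controls already stood far below the wild-type controls, and ARID2 knockdown lowered them further. The region chr1:238935599-238936339 held 12.6 CPM in both wild-type controls, 5.91 and 4.45 with ARID2 knockdown, 2.62 and 3.1 in the SMARCA4-null controls and 1.33 and 0.802 with ARID2 knockdown. The region chr2:188521114-188521746 held 14.7 and 15.4 CPM, then 9.67 and 7.18 with ARID2 knockdown, and 4.74 and 2.7 in the SMARCA4-null controls, then 1.33 and 0.669. The 4 groups of each region thus stood in the same order, with wild-type control highest and SMARCA4-null cells with ARID2 knockdown lowest. These regions were chosen with each knockdown library below its same-numbered control, so that part of the order follows from the choice. The average log2 fold changes were -1.33 (SE 0.279, adjusted p = 0.0137) and -1.34 (SE 0.265, adjusted p = 0.00699). In the second table the SMARCA4 knockout had log2 fold changes of -0.81 (adjusted p = 0.0867, not called) and -1.05 (adjusted p = 0.00702). The wild-type libraries of that table held 2.62 and 3.23 CPM, and 3.98 and 3.35 CPM, below the wild-type controls here.

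The same order held at chr13:85680359-85681121, with group means of 15.3, 7.78, 2.82 and 1.02 CPM, and at chr13:108166015-108166869, with 9.26, 4.05, 3.04 and 1.36 CPM. Their average log2 fold changes were -1.24 (SE 0.274) and -1.21 (SE 0.297). In the second table the SMARCA4 knockout had log2 fold changes of -2.12 and -1.38 at these regions, and the ARID2 knockout clone -0.33 and 0.07 (adjusted p = 0.757 and 0.975). At chr5:110472944-110473575 most of the loss lay in wild-type cells, with 5.66 and 9.77 CPM against 2.9 and 1.58, while SMARCA4-null cells held 3.87 and 5.26 against 2.3 and 3.48. The remaining leading regions, chr15:54039616-54040254 and chr2:185223661-185224544, went the other way, with a log2 fold change of -0.39 in wild-type cells at each and of -2.14 and -2.02 in SMARCA4-null cells. None of these differences between backgrounds passed the test (adjusted p = 1 for the difference at all 3). In the ARID2 knockout clone none of the 8 leading lower regions was called (0 of 8, smallest adjusted p = 0.226), and 4 of the 8 had a value above 0, with a range of -1.14 to 0.27 on the log2 scale.

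**Figure D2:**
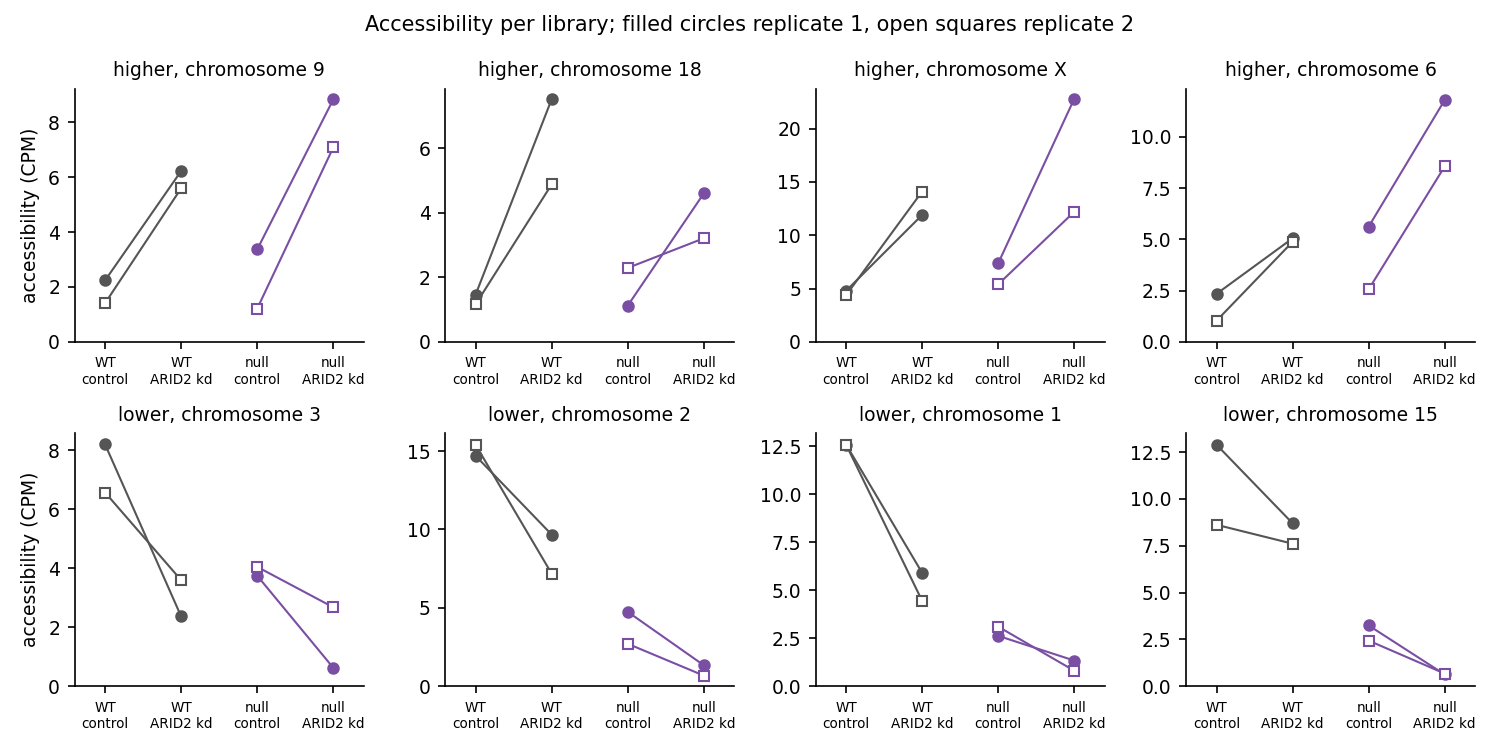
Accessibility in CPM (y axis) of each library by group (x axis) at the leading 4 higher and 4 lower regions of the average; lines join libraries of the same replicate number and kd stands for knockdown. At the chromosome 9 region the knockdown libraries sit at 5.6 to 8.84 CPM, above the controls at 1.21 to 3.37.

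Over the whole set, 129 of the 137 higher and 155 of the 158 lower regions had every knockdown library on the same side of its same-numbered control in all 4 pairs. Among all regions 8.44% were higher and 10.3% lower in all 4 pairs. The 4 knockdown libraries did not overlap the 4 controls at 61 of the higher and 65 of the lower regions, against 1.28% and 1.3% of all regions in those directions. The test selects for such values, so these counts only describe the calls. Chromosomes 14, 16, 17, 19, 20 and 21 held 0 of the lower and 22 of the higher regions (16.1%), against 13.4% of all regions. They are grouped here because they held no lower region, so that 0 follows from the choice. Chromosome 15 held 3 of the lower (1.9%) and 12 of the higher ones (8.76%), against 3.42% of all regions. Of the 295 called regions 3 lay on contigs without a chromosome position.

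In wild-type cells alone, 3 of the 4 called regions met the rule for naming. Beside the chromosome 18 region, chr5:143682333-143683214 rose from 6.24 and 6.56 CPM to 20.3 and 17.7 (log2 fold change 1.57, SE 0.268, adjusted p = 0.00551). In SMARCA4-null cells it held 12.7 and 11.3 CPM with the control and 19.6 and 14.6 with ARID2 knockdown, so the SMARCA4-null controls stood between the 2 wild-type groups. The region also rose in the ARID1A knockout (log2 fold change 1.98), while the value in the ARID2 knockout clone was -0.45 (SE 0.288, adjusted p = 0.609).

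The region chr12:32714715-32715822 rose from 6.44 and 4.37 CPM to 15.7 and 13.8 in wild-type cells (log2 fold change 1.48, SE 0.287, adjusted p = 0.0429). SMARCA4-null controls held 19.2 and 16 CPM there, and ARID2 knockdown gave 50.9 and 19.9, so that replicate 1 alone stood high. The ARID2 knockout clone was higher as well (log2 fold change 0.93, SE 0.216, adjusted p = 0.00464). The last of the 4, chr17:1997959-1998460, lay below the median accessibility and is named only because the count is small: it rose from 0.78 and 1.16 to 5.05 and 5.03 CPM in wild-type cells and held 2.12 and 5.26 against 2.83 and 3.88 CPM in SMARCA4-null cells.

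No region was lower at the threshold in wild-type cells. The 3 with the smallest unadjusted p were chr17:60579413-60580023 at 7.02 and 5.92 CPM against 2.26 and 0.718, chr5:110472944-110473575, given above, and chr19:16720047-16720701 at 12.4 and 8.62 against 4.83 and 2.73. Their adjusted p were 0.131, 0.264 and 0.268, so they did not pass. They were taken with no limit on accessibility, and the chromosome 17 region lay below the median, at 2.83 against 3.6 CPM over all 16 libraries.

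In SMARCA4-null cells the called regions were mostly gains, and the leading ones stood at 0.943 to 3.99 CPM in the SMARCA4-null controls. The leading region, chr7:133633180-133633863, held 2.25 and 1.89 CPM in those controls and 11.4 and 8.02 with ARID2 knockdown, a 4.67-fold gain (log2 fold change 2.22, SE 0.362, adjusted p = 0.0013). Wild-type controls held 7.22 and 6.69 CPM there, and wild-type ARID2 knockdown 11.5 and 4.31. The knockdown thus brought the SMARCA4-null libraries to the range of the wild-type ones.

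Similar values were seen at chr1:43447419-43448041, with 9.36 and 6.43 CPM in wild-type controls, 1.5 and 2.29 in SMARCA4-null controls and 8.67 and 4.41 after ARID2 knockdown in SMARCA4-null cells. At chr3:109618629-109619334 these groups held 7.61 and 8.74, 3.12 and 0.943, and 9.29 and 4.95 CPM. At chr13:26597615-26598284 they held 3.51 and 5.53, 1.5 and 1.21, and 6.19 and 5.88 CPM. The choice of regions that rose from the SMARCA4-null controls favours sites with low values in those 2 libraries, so the second table, which shares no library with them, was read for the same sites. There the SMARCA4 knockout had log2 fold changes of -1.5, -1.24, -1.09 and -0.47 at the regions on chromosomes 7, 1, 3 and 13.

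Over all 58 higher regions, 38 had a lower value in the SMARCA4 knockout of the second table, with 21 of the 58 called lower and 13 called higher. The median log2 fold change was -0.244. Among all regions measured there, 13.9% were called lower and 8% higher in the SMARCA4 knockout. In the ARID1A knockout 40 of the 58 were lower and 23 of these were called, against 10.3% of all regions. Of these 58 regions 70.7% lay among the 25% most accessible, where calls are more frequent, and the part of accessibility in these shares was not tested. Other leading gains, at chr16:12132502-12133243, chr13:42213998-42214731 and chr11:36521758-36522447, began at 1.75 to 3.99 CPM in the SMARCA4-null controls and reached 6.42 to 18.2 with ARID2 knockdown. Replicate 1 of the knockdown was the higher one at each of these 3.

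The 5 lower regions of SMARCA4-null cells that met the rule fell by 1.2 to 2.02 on the log2 scale. At chr4:168788024-168789010 the SMARCA4-null controls held 5.37 and 3.37 CPM and the ARID2 knockdown 0.707 and 1.74, 3.78-fold less (log2 fold change -1.92, SE 0.419, adjusted p = 0.0332). Wild-type cells stood far above at 15 and 17.9 CPM with the control and 21.3 and 17.2 with ARID2 knockdown. At chr7:158380137-158380925 the SMARCA4-null libraries went from 12.9 and 17.9 to 5.13 and 4.95 CPM (log2 fold change -1.59, SE 0.3, adjusted p = 0.00655), and at chr2:66918689-66919248 from 9.73 and 6.6 to 3.01 and 2.41. At chr11:86510943-86512080 they went from 16.7 and 26 to 9.64 and 9.09 CPM. In wild-type cells the same contrast gave log2 fold changes of -0.71, -0.17 and -0.55 at these 3 regions.

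No region showed a difference between backgrounds that passed the test: 0 of 145617 were called for the effect in SMARCA4-null cells minus that in wild-type cells (0%), with a smallest adjusted p of 0.413 and 7006 regions (4.81%) at an unadjusted p under 0.05. DESeq2 also called 0, with 4373 at an unadjusted p under 0.05. The lists called in each background are therefore not shown to be particular to it. Of the 58 regions that rose in SMARCA4-null cells, 47 (81%) were also higher with ARID2 knockdown in wild-type cells, 14 of them at an unadjusted p under 0.05 (3.51% of all regions), with a median log2 fold change of 0.285 against -0.0241 for all regions. These 2 contrasts share no library. Over the 72808 regions of above-median accessibility, the log2 fold changes in the 2 backgrounds correlated at r = 0.297 (Spearman's rho 0.311). Regions are not independent replicates and the libraries share the replicate block, so this is a description only.

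**Figure D3:**
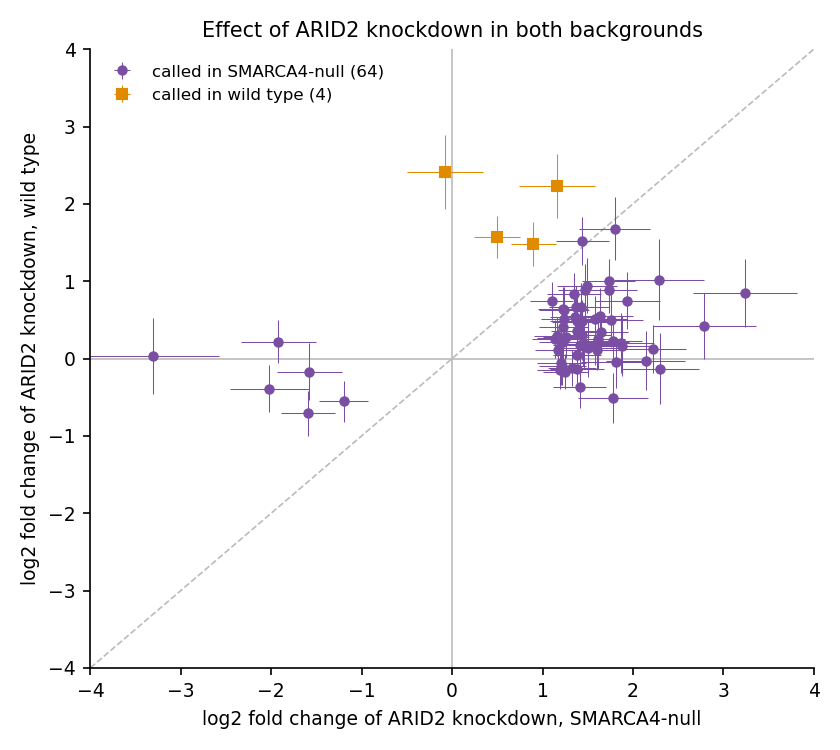
Log2 fold change of ARID2 knockdown in SMARCA4-null cells (x axis) and in wild-type cells (y axis) at the 64 regions called in SMARCA4-null cells and the 4 called in wild-type cells; bars are SE and the dashed line marks equal change. Of the 58 regions higher in SMARCA4-null cells, 47 lie above 0 in wild-type cells as well.

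The regions with the smallest p for a difference included 2 neighbours on chromosome 4 with opposite signs in the 2 backgrounds. The region chr4:112632369-112633014 held 2.15 and 1.93 CPM in wild-type controls and 5.48 and 4.45 with ARID2 knockdown, but 4.87 and 5.26 in SMARCA4-null controls and 2.3 and 1.47 with ARID2 knockdown. Its neighbour chr4:112633294-112634219 held 6.34 and 6.82 against 14 and 11.3 in wild-type cells, and 9.98 and 10.4 against 4.95 and 5.48 in SMARCA4-null cells. The differences were -2.68 on the log2 scale (95% interval -3.86 to -1.5) and -1.92 (95% interval -2.77 to -1.07), each with an adjusted p of 0.413, so neither passed. In the ARID2 knockout clone, on a background with SMARCA4, both neighbours were called higher (log2 fold changes 1.24 and 1.21, adjusted p = 0.0177 and 0.000197). Both were also called higher in the SMARCA4 knockout (0.91 and 0.63, adjusted p = 0.0145 and 0.0184). The PBRM1, BRD7, PHF10 and ARID1A knockouts had positive values at both, so the rise was not particular to the ARID2 knockout. These knockouts share their wild-type libraries.

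The reverse signs were seen at chr4:55952825-55954280, with 20.2 and 20.8 CPM against 11.9 and 8.91 in wild-type cells and 1.87 and 3.37 against 4.6 and 7.09 in SMARCA4-null cells (difference 2.1, 95% interval 1.2 to 3, adjusted p = 0.413). At chr17:60579413-60580023 the difference was 3.14 (95% interval 1.75 to 4.53, adjusted p = 0.413), with 1.5 and 0.539 CPM in SMARCA4-null controls and 3.27 and 0.802 with ARID2 knockdown, so its SMARCA4-null groups overlapped. This region and chr4:112632369-112633014 lay below the median accessibility, at 2.83 and 3.56 against 3.6 CPM over all 16 libraries. Among the 295 regions called in the average, 35 (11.9%) had an unadjusted p under 0.05 for the difference, against 4.81% of all regions. Of these, 22 higher regions rose more in SMARCA4-null cells and 4 rose less, while 9 lower regions fell more there and 0 fell less. The average holds both contrasts, so a region extreme in 1 background alone can enter the list and also have a large difference. These counts therefore only describe the calls, and 0 of the 295 passed the test for the difference.

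A separate readout of ARID2 loss came from the second deposited table, in which 1 ARID2 knockout clone was measured in 2 libraries against 2 wild-type libraries. It shares no library with the knockdown. There 2602 of 145532 regions were called (1.79%), 1610 lower (1.11%) and 992 higher (0.682%). Without ARID2 knockout replicate 1 the split was 852 lower and 187 higher, without its replicate 2 it turned to 929 lower and 1235 higher, and without wild-type replicate 1 and 2 it was 561 and 323, and 1009 and 369. Being 1 clone, gene loss cannot be told apart from other changes of that clone.

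Regions called in the ARID2 knockout lay more often on the same side with the knockdown than all regions did. Of the 1610 lower regions 76.3% were lower with ARID2 knockdown in wild-type cells and 62.2% in SMARCA4-null cells, with median log2 fold changes of -0.259 and -0.142. Among all regions 52.1% and 51.1% were lower. Of 990 higher regions that were tested, 65.8% were higher in wild-type cells and 65.9% in SMARCA4-null cells, with medians of 0.159 and 0.191, against 47.9% and 48.9% of all regions. With cyclic loess offsets the medians were -0.22 and -0.142 for the lower list and 0.181 and 0.182 for the higher list, so the signs stood. Few of the regions reached a low p of their own: 257 of the 1610 were lower at an unadjusted p under 0.05 in wild-type cells and 157 in SMARCA4-null cells, where 4.97% and 4.08% of all regions were. In wild-type cells the lower lists of the other knockouts read below were also mostly lower, from 63.2% for ARID1A to 74.8% for PBRM1. The part of accessibility in these shares was not tested.

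The knockouts of the other PBAF subunits gave smaller lists with the same side in wild-type cells. The 353 regions lower in the PBRM1 knockout (0.243% of all) had a median of -0.232 with ARID2 knockdown in wild-type cells, the 454 lower in the BRD7 knockout (0.312%) -0.188 and the 354 lower in the PHF10 knockout (0.243%) -0.222. In SMARCA4-null cells these medians were -0.0801, -0.0835 and -0.0212. Whether the lists differ between backgrounds was not tested as such. The regions higher in the PBRM1, BRD7 and PHF10 knockouts (0.18%, 0.383% and 0.148% of all) had medians of 0.0903, 0.0729 and 0.0709 in wild-type cells and of 0.00603, 0.0981 and -0.0561 in SMARCA4-null cells. All knockouts share the wild-type libraries of their table, so these lists are not independent of each other.

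The lists of the canonical BAF subunit and the ATPase were read in the same way, and no difference between lists was tested. The 14983 regions lower in the ARID1A knockout and the 20200 lower in the SMARCA4 knockout had medians of -0.128 and -0.139 with ARID2 knockdown in wild-type cells, but the 3298 (2.27%) and 11638 (8%) regions higher in those knockouts had negative medians too, of -0.0955 and -0.146. With cyclic loess offsets the lower lists stood at -0.132 and -0.15 and the higher lists turned to 0.0438 and 0.0436. The sign of the higher lists thus depended on the scaling. In SMARCA4-null cells the regions lower in the ARID1A and SMARCA4 knockouts had medians of 0.00746 and -0.0283, close to -0.012 for all regions. The 6094 lower (4.19%) and 1461 higher (1%) regions of the SMARCC1 knockout had medians of -0.174 and 0.043 in wild-type cells.

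**Figure D4:**
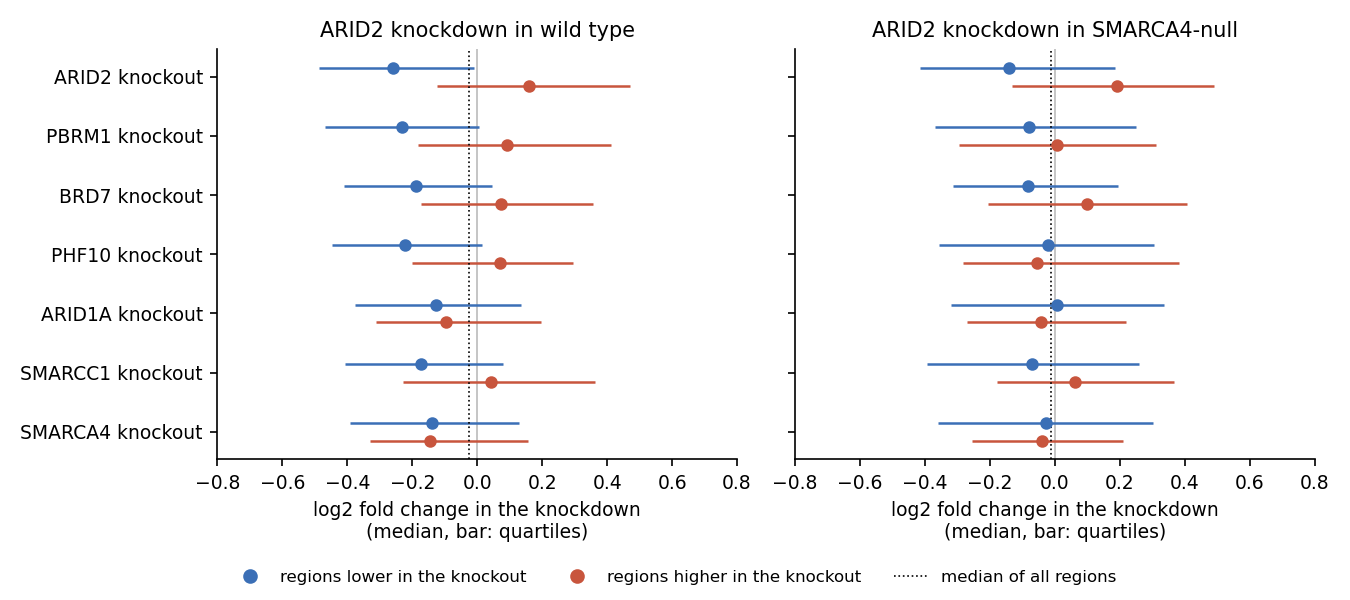
Log2 fold change with ARID2 knockdown (x axis) in wild-type cells (left) and SMARCA4-null cells (right) for regions called lower or higher in single knockouts of the second table (y axis); points are medians over regions, bars span the quartiles and the dotted line is the median of all regions. The ARID2 knockout lists lie at -0.259 and 0.159 in wild-type cells and at -0.142 and 0.191 in SMARCA4-null cells.

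Read the other way, the regions called in the average were followed into the knockout table. Of 134 higher regions found there, 96 (71.6%) were higher in the ARID2 knockout, 22 of the 134 called higher, with a median log2 fold change of 0.319. Of the 158 lower regions 124 (78.5%) were lower, 14 of them called lower, with a median of -0.225. Across all regions 50.1% were higher and 49.9% lower, and 0.682% were called higher and 1.11% called lower. The called lists lay at more accessible regions than the rest, and the part of that in these shares was not tested. Without wild-type replicate 1 of the knockout table the share of lower regions was 58.2%, and without ARID2 knockout replicate 1 it was 85.4%.

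The same regions had medians of 0.231 and -0.216 in the PBRM1 knockout and of 0.277 and -0.208 in the BRD7 knockout. In the PHF10 knockout the higher list had a median of 0.137 and the lower list 0.121, so the lower regions had the opposite sign there. In the ARID1A knockout the higher list had a median of -0.238, with 38 regions called lower and 14 called higher, against 10.3% and 2.27% of all regions. The lower list had a median of -0.00642 there, with 30 of its 158 regions called lower and 8 called higher. Calls in the ARID1A knockout were thus not particular to the higher list.

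**Figure D5:**
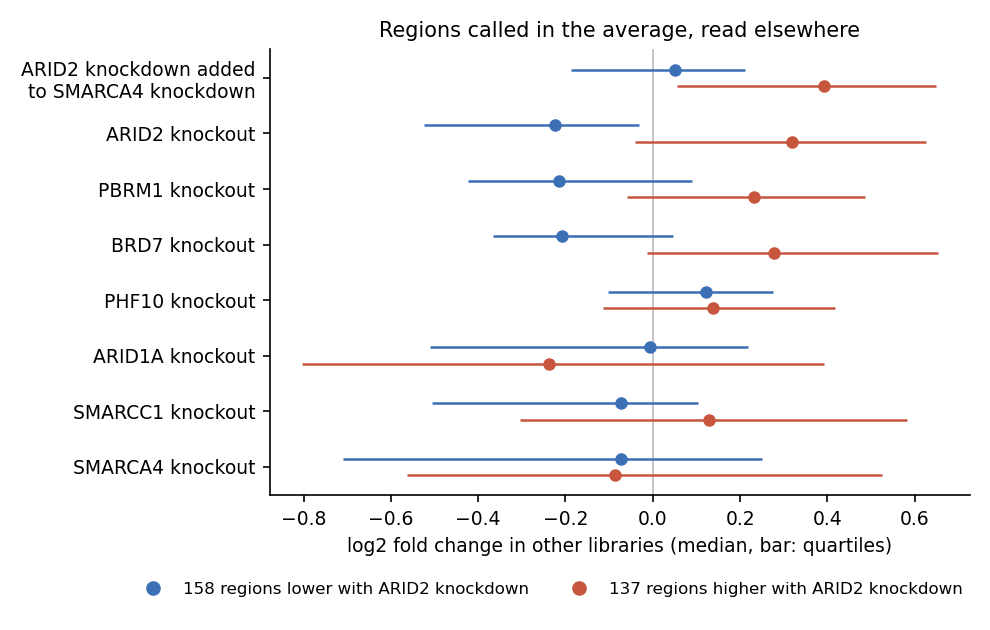
Log2 fold change in other libraries (x axis) of the 158 regions lower and the 137 regions higher in the average of the ARID2 knockdown, for ARID2 knockdown added to SMARCA4 knockdown and for single knockouts (y axis); points are medians over regions and bars span the quartiles. The lists part at -0.225 and 0.319 in the ARID2 knockout, and both lie above 0 in the PHF10 knockout.

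The 36 regions called in the same direction in the average and in the ARID2 knockout were singled out after their values were seen. Among the 14 lower ones, chr11:126700127-126700799 held 28.7 and 30.2 CPM in wild-type controls, 18.8 and 9.91 with ARID2 knockdown, 4.74 and 4.85 in SMARCA4-null controls and 1.41 and 2.94 with ARID2 knockdown. Its average log2 fold change was -1.11 (SE 0.227, adjusted p = 0.01), with -1.49 (SE 0.249) in the ARID2 knockout and -1.45 in the BRD7 knockout. It fell in the SMARCA4 knockout too, by 2.76 on the log2 scale. Its 4 groups again stood in the order wild-type control, wild-type ARID2 knockdown, SMARCA4-null control and SMARCA4-null ARID2 knockdown.

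The region chr6:166075528-166077664, 2136 bp wide, held 35.8 and 34.9 CPM in wild-type controls and 23.2 and 20.8 with ARID2 knockdown, and 23.2 and 27.4 against 12.2 and 18.3 in SMARCA4-null cells. The ARID2 knockout clone held 10.3 and 10.8 CPM there against 32.2 and 27.7 (log2 fold change -1.5, SE 0.212, adjusted p = 9.6e-08). At chr1:241519457-241520964 the values were 35.9 and 30.1 against 22.3 and 10.9 in wild-type cells and 27.6 and 36.4 against 20.8 and 17.8 in SMARCA4-null cells. There the SMARCA4 knockout was close to wild type, with a log2 fold change of -0.2 against -1.22 in the ARID2 knockout. SMARCA4 knockdown in wild-type cells, however, gave 14.8 and 12.7 CPM at this region, below the wild-type controls. Among the knockdown libraries a low value was thus not particular to ARID2 loss.

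Among the 22 higher regions, chr5:33445731-33446498 held 2.73 and 4.12 CPM in wild-type controls, 7.63 and 11.6 with ARID2 knockdown, 16.7 and 11.1 in SMARCA4-null controls and 30.6 and 13.2 with ARID2 knockdown. Its log2 fold change was 1.75 (SE 0.267) in the ARID2 knockout and 1.36, 1.44, 1.31, 1.26 and 1.51 in the PBRM1, BRD7, PHF10, ARID1A and SMARCA4 knockouts. At chr4:157729592-157730132 the average gain was 3.01-fold, from 0.878 and 1.29 CPM to 3.01 and 3.88 in wild-type cells and from 1.87 and 0.943 to 3.98 and 4.15 in SMARCA4-null cells. The region chr15:89955616-89956626 went from 6.92 and 6.3 to 14.3 and 10.8 CPM and from 5.49 and 6.33 to 12.5 and 9.76, and its log2 fold change in the ARID2 knockout was 1.5 (SE 0.245).

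ARID2 was also reduced in another setting, in which its knockdown was added to SMARCA4 knockdown in wild-type cells, again with 2 libraries per group. It shares no library with the contrasts above. It had 14 called regions (0.00961%), 13 higher (0.00893%) and 1 lower (0.000687%), and 0 with no replicate block. The count was 4 and 0 without replicate 1 and 2 of SMARCA4 knockdown alone, and 1 and 2 without replicate 1 and 2 of both knockdowns. Of the 137 regions higher in the average, 107 (78.1%) were higher here too, 36 of them at an unadjusted p under 0.05 (2.88% of all regions), with a median log2 fold change of 0.392 against -0.00441 for all regions. Of the 158 lower regions 69 were lower and 89 higher, with a median of 0.0511, so the lower list as a group was not lower in this setting.

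The lists of the ARID2 knockout had medians near that of all regions there, at 0.0469 for the lower regions and 0.0397 for the higher ones. Across the 72808 more accessible regions, the log2 fold changes of this contrast correlated with those of ARID2 knockdown in wild-type cells at r = 0.0751 and in SMARCA4-null cells at -0.046. At chr18:48208039-48208594 SMARCA4 knockdown alone gave 8.73 and 3.97 CPM and both knockdowns 15.3 and 8.63, and at chr6:83917840-83918507 the values were 6.66 and 3.8 against 13.7 and 9.57. At both regions each library with both knockdowns stood above its same-numbered library with SMARCA4 knockdown alone, but neither region was called in this contrast. Over the 8 leading higher regions its log2 fold changes ran from 1.21 at chr7:9244292-9245097 to -0.4 at chr4:190637232-190637740, the only value below 0. They were 0.22 at chr2:210360631-210361294 and 0.05 at chr2:28833428-28834016.

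A stretch of chromosome 15 from 60 to 90 Mb, of which HAP1 is known to carry an additional copy, was read as a whole. Its 2633 regions had a median log2 fold change of 0.197 with ARID2 knockdown in wild-type cells and 0.159 in SMARCA4-null cells, against 0.0269 and 0.0565 for the 2352 other regions of the chromosome. Whole-chromosome medians reached 0.131 on chromosome 21 in wild-type cells, and 0.142 on chromosome 22 and 0.127 on chromosome 17 in SMARCA4-null cells. The share of counts on the stretch was 2.39% and 2.32% in wild-type controls, 2.44% and 2.74% with ARID2 knockdown, 2.69% and 2.73% in SMARCA4-null controls and 2.87% and 3.09% with ARID2 knockdown. Knockdown libraries lay above controls within each background, although the wild-type gap was small in replicate 1. Libraries without ARID2 knockdown reached the same levels, at 2.66% and 3.03% with SMARCA4 knockdown alone and 2.44% and 3% in ARID2 knockout cells with a control knockdown. In both of these groups replicate 2 was the one with fewer counts in the most accessible 10% of regions, at 40.3% against 51.2% and 35.1% against 41%. The part of this in the difference on the stretch was not tested. With ARID2 knockdown added to SMARCA4 knockdown the median was -0.0388. Counts cannot tell the number of DNA copies apart from accessibility per copy, and the stretch held 8 of the 137 higher regions (5.84%) and 1 of the 158 lower ones (0.633%), against 1.81% of all regions.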

How the data were processed

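Both deposited tables give raw, unscaled counts of reads in each region for each library. Per the submitters' processing notes the build was hg19, and MACS2 2.1.1.20160309, Bowtie2 2.2.4 and Picard 1.118 were used in an order that is not given. How regions were merged and reads counted is not given in the sources used here. Coordinates are printed as deposited. Counts were tested in R 4.3.3 with edgeR 4.0.16 (quasi-likelihood test, TMM, default expression filter, 2-sided). The knockdown fit held all 16 libraries of its table in 8 groups with the replicate number as a block (7 residual degrees of freedom, 2 libraries per group), which the comparison's definition asks for. The knockout fit held 56 libraries with 1 coefficient per clone (28 residual degrees of freedom), and 2 columns of libraries outside the labels were not used. Tests of difference were interactions within the knockdown fit. CPM use TMM library sizes. Alternatives were no block, other scalings, no filter, robust fitting, 8 libraries only, DESeq2 1.42.0 and leaving out each library. The scripts were tested on simulated data. Named regions passed the threshold, lay above median accessibility and had every knockdown library on 1 side of its same-numbered control, ranked by log2 fold change, up to 8 per direction. Where fewer than 3 passed, the smallest unadjusted p were taken up to 3, with no limit on accessibility. Regions, lists and the rule were chosen with earlier results of these data known. Reads carry no molecular identifiers. Gene names, annotation and sequence are not given because the reference used here is of another build.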

Additional observations from a re-analysis of the deposited data

How the results depend on the processing

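With no replicate block the counts of called regions were 0 in wild-type cells, 0 in SMARCA4-null cells, 5 in the average and 0 for ARID2 knockdown added to SMARCA4 knockdown; of the 5 regions, 4 (80%) had a value above 0 in the ARID2 knockout, but at 2 of these it was 0.03 and 0.05 on the log2 scale, and 1 was called there. Replicate numbers are shared by the labels but nothing says that they mark a common culture or day, and the 28 pairs of the 8 groups correlated at 0.0681 to 0.351. With cyclic loess offsets the counts were 30 in wild-type cells, 158 in SMARCA4-null cells, 429 in the average (205 shared with the 295) and 32 for the added knockdown. With the size factors of DESeq2 in edgeR wild-type cells had 2, with the 8 libraries alone 7, and with DESeq2 1, where the average had 548, 131 of them shared. Robust fitting gave 23 for the added knockdown. At an adjusted p of 0.1 the counts were 144 in SMARCA4-null cells, 1086 in the average, 27 for the added knockdown and 4036 in the ARID2 knockout. Leaving out 1 library gave 0 to 1 in wild-type cells, 0 to 224 in SMARCA4-null cells, 11 to 468 in the average, 0 to 4 for the added knockdown and 884 to 2164 in the ARID2 knockout. It moved the share of lower regions that were also lower in the ARID2 knockout between 58.2% and 85.4%. The cause of these changes was not tested. The difference between backgrounds had 0 called regions in every setting run. Of 515 values of named regions under these settings 0 turned direction, 146 lost and 2 gained their call. The rule for naming asks every knockdown library to lie on 1 side of its control, and the settings reuse these libraries. A turn of direction was thus unlikely from the start, and its absence is a description only. The depth was a median of 26 to 36 counts per region in 2 libraries per group, and how small a change the test could detect is not given here.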
